A study of Mus musculus with 27 samples.

Results

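The smooth muscle contractile genes are a set of 10 genes whose products build or control the contractile apparatus of smooth muscle: Acta2, Tagln, Cnn1, Myh11, Myl9, Lmod1, Actg2, Smtn, Des and Myocd. They were matched by symbol to 1 Ensembl identifier each among the 48795 genes of the deposited tables, and all 10 were among the 20839 genes that passed the filter on low counts. They were followed over 27 RNA sequencing libraries, 3 in each of 9 groups, made along a differentiation of XY mouse embryonic stem cells (ESCs) towards the gonad. The question was at which step, and under which signals, the levels of these genes changed. The cells were steered towards intermediate mesoderm (IM) and then towards Sertoli cells, the supporting cells of the testis.

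In smooth muscle, force comes from actin filaments (Acta2 and Actg2 encode the smooth muscle isoforms) that slide along myosin made of the heavy chain Myh11 and regulatory light chains such as Myl9. Calponin 1 (Cnn1), transgelin (Tagln), smoothelin (Smtn) and leiomodin 1 (Lmod1) bind actin, and desmin (Des) forms the intermediate filaments that muscle types share. Myocardin (Myocd) is the transcriptional coactivator that joins serum response factor (Srf) at CArG boxes in many of these genes. Acta2, Tagln and Cnn1 are also switched on in fibroblasts that become contractile and, for a time, in early heart muscle, whereas Myh11, Lmod1 and Smtn are known as later and more restricted markers. In the embryonic testis, Acta2 and Myh11 are known from the peritubular cells that wrap the cords, not from Sertoli cells.

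All 9 groups came from 1 clone of a line that carries TESCO-CFP, a fluorescent reporter driven by a Sox9 enhancer, and an rtTA transgene in the Rosa26 locus, on an F1 background of C57BL/6 and CBA. ESCs were grown in 2i/LIF on gelatin. EpiSC were epiblast-like cells made with 12 ng/ml bFGF, 20 ng/ml activin A and 1% knockout serum replacement (KSR) over 2.5 days. M were mesoderm-like cells made from them in 36 h with 20 ng/ml bFGF, 10 ng/ml BMP4 and 10 µM LY294002, an inhibitor of PI3 kinase. The 5 IM conditions all held 5 ng/ml bFGF and 20 ng/ml BMP4. IM1 had no further addition, IM3 had 100 nM retinoic acid (RA), IM2 had RA with 10 ng/ml activin A, IM4 had RA with 0.3 µM CHIR99021, an activator of canonical WNT signalling, and IM5 had RA with both. The induced Sertoli-like cells (iSLC) were IM3 cells infected with doxycycline-inducible Nr5a1 and Dmrt1 lentiviruses, moved to another medium and sorted for CFP. By the paper's methods this medium held activin A, which IM3 lacked, along with testosterone, FSH, EGF, FGF9, a prostaglandin and doxycycline. The factors listed for it do not include the bFGF, BMP4 and RA of IM3. The transgenes, the medium, the added culture time and the sort therefore cannot be told apart in iSLC.

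The libraries held 35923040 to 84876603 expected counts, and replicates of a group differed by more than counting noise. The genes carried by the viruses fitted the labels: Nr5a1 averaged 93.8 TPM and Dmrt1 213 TPM in iSLC against 0.09 and 0.45 TPM in IM3. Counts per gene cannot tell virus transcripts from those of the cell's own genes. Of the Sertoli cell markers, Sox9 was at 24.8 TPM in iSLC, Amh at 0.56 TPM and Ptgds at 0.493 TPM. Of 10 such markers only Nr5a1 and Dmrt1 were called higher than in IM3, and none was called lower. Normalized counts of Sox9 were 3179 to 3593 in iSLC and 4708 to 6170 in IM3. Those of Sox8 went the other way, at 557.3 to 616.7 in iSLC and 311.7 to 379.2 in IM3. A sum of 6 red blood cell genes split the libraries into 12 of ESC, M, IM3 and IM4 (4.02 to 27.6 CPM) and 15 of EpiSC, IM1, IM2, IM5 and iSLC (0.375 to 1.38 CPM). The trend of the libraries with GC content also leaned to opposite sides, at -0.389 to -0.068 and at -0.077 to 0.453 on the log2 scale. Comparisons between the 2 sides (EpiSC with ESC, M with EpiSC, IM1 with M, IM3 with IM1, IM2 with IM3, IM5 with IM4 and iSLC with IM3) carry that split along with the conditions, and its part in them was not tested beyond an offset for GC content. IM3 against M, IM4 against IM3 and IM5 against IM2 stay within a side.

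The RefSeq promoter table (GRCm38.p6) held 6 of the 10 genes: Acta2, Cnn1, Des, Lmod1, Myl9 and Smtn. Tagln, Myh11, Actg2 and Myocd had no entry. The 250 bases before each RefSeq start were searched on both strands for the CArG box (CC, a core of A and T bases, GG), for a near match with at most 1 G or C in that core, and for GGAATG or its reverse complement CATTCC, the site of TEAD factors. A full CArG box was present in 1.47% of 32851 promoters of the same length, a CArG box or near match in 8.59%, and GGAATG or CATTCC in 12.6%. The pair of promoters below, of genes that rose together in iSLC, are shown up to the first base of the GENCODE gene, with these motifs in capitals. The first lies at chr2:156775214-156775419 on the plus strand and the second at chr1:135324563-135324806 on the plus strand, 206 and 244 bases that end where the annotated gene begins.
Myl9: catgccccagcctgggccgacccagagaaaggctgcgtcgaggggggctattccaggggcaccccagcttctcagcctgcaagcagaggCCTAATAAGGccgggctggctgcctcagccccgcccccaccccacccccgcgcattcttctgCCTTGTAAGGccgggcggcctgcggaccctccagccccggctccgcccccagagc
Lmod1: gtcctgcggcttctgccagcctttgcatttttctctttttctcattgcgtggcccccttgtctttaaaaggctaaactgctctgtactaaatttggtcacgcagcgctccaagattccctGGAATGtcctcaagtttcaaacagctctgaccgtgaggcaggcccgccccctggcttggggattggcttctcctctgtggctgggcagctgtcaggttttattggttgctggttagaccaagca
Myl9 held a full CArG box, CCTAATAAGG, 161 bases before its RefSeq start, and a near match, CCTTGTAAGG, 99 bases before it. Lmod1 held GGAATG 130 bases before the start and no CArG box in this window. Acta2 held a pair of near matches, CCCTATATGG at 84 and CCTTGTTTGG at 34 bases before its RefSeq start on the minus strand of chromosome 19, and GGAATG at 146. Of its 250 bases, 217 lie within the span of the GENCODE gene, so the window is shown only by these elements. Smtn held CATTCC 222 bases before its RefSeq start, in a window whose 250 bases all lie within the span of the GENCODE gene. None of these motifs was found in the windows of Cnn1 and Des. These are matches of letters only.

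On the TPM scale, which corrects for transcript length, the 10 genes together stood at 86.2 ± 3.02 TPM in ESC (SD, n = 3, as for all levels here), 409.9 ± 18.8 in EpiSC, 188.1 ± 9.46 in M, between 1343.8 (IM4) and 2646 (IM1) in the IM conditions, and at 3772 ± 36.7 in iSLC. Acta2 and Tagln made up most of this sum wherever it was high. Each of the 10 genes differed among the 9 groups in edgeR's quasi-likelihood F test (the largest adjusted p, 3.54e-12, was that of Myocd). This was the rule rather than the exception, since 96.4% of all genes tested did so. Of the 10 genes, 7 had their highest mean in iSLC (Tagln, Myh11, Myl9, Lmod1, Actg2, Smtn and Des), Acta2 in IM1, Cnn1 in EpiSC and Myocd in IM3. In RNA from a bulk culture, more cells that express a gene and more RNA per cell cannot be told apart.

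**Figure D1:**
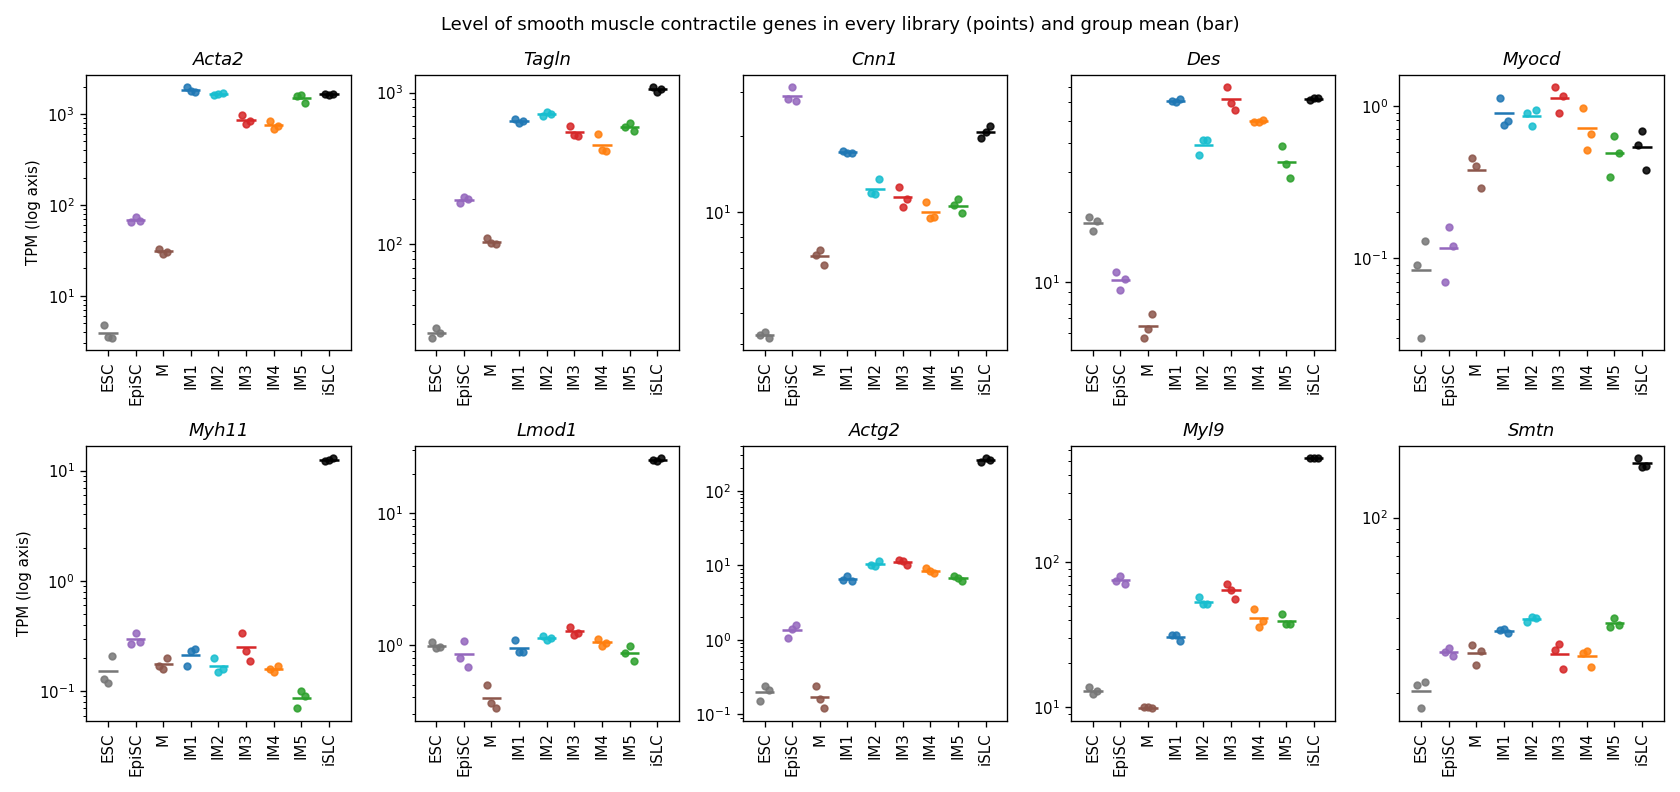
Level in TPM on a log axis of each of the 10 genes in each of the 27 libraries, by group, with points for libraries and bars for group means; each panel has its own axis. Acta2, Tagln and Des stepped up between M and the IM conditions, whereas Myh11, Lmod1, Actg2, Myl9 and Smtn were highest in iSLC by a wide gap (Myh11 12.6 TPM against at most 0.297 elsewhere).

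Acta2, smooth muscle alpha actin, reached the highest levels of the set. Its mean was 3.9 ± 0.713 TPM in ESC, 67.8 ± 4.81 in EpiSC, 30.8 ± 2.02 in M, 1847 ± 108.7 in IM1, 1659 ± 31.9 in IM2, 868 ± 105.8 in IM3, 750 ± 81.5 in IM4, 1512 ± 150.5 in IM5 and 1652 ± 12.9 in iSLC. The libraries of IM2 and iSLC overlapped, as did those of IM3 and IM4, and every other pair of neighbours in this order stood apart. Tagln ran in a similar order but over a narrower range, from 26.2 ± 1.86 TPM in ESC to 1048 ± 34.4 in iSLC. Its IM means lay between 454 (IM4) and 721.5 (IM2), with overlap between IM1 and IM5, IM5 and IM3, and IM3 and IM4. Across the 9 group means of log2 normalized counts the Pearson correlation of Acta2 with Tagln was 0.982, and that of either with Myh11 was 0.206 and 0.333. These are descriptions over 9 points that share the same libraries. The paper stained ESC, EpiSC, M and IM3 cells for alpha smooth muscle actin, the product of Acta2, and reports seeing none. The levels here are of RNA, and protein was not measured.

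Cnn1, an inhibitor of myosin's ATPase, was low and moved in another order. Its mean was 29.1 TPM in EpiSC, 20.8 in iSLC, 17.3 in IM1, between 10 and 12.4 in the other IM conditions, 6.71 in M and 3.27 in ESC. Des was present from the start, at 18 TPM in ESC, fell to 6.41 in M, and stood at 61.8 in IM3, 60.9 in IM1 and 62.1 in iSLC, groups whose libraries overlapped. Smtn, known as a marker of contractile cells, was present in every group here. It varied little before the last step, with means from 20.4 TPM in ESC to 39.5 in IM2, and reached 164 in iSLC. Myocd never exceeded 1.32 TPM in any library. Its highest mean was 1.12 TPM in IM3, and its libraries overlapped between every pair of neighbours in the order from IM3 down to M.

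Myh11, the heavy chain regarded as the most specific of these markers, was at 0.07 to 0.34 TPM in all 24 libraries other than iSLC, and at 12.31, 12.39 and 12.96 TPM in iSLC. Lmod1, a nucleator of actin filaments, was at 0.33 to 1.38 TPM in the 24 libraries and at 25 to 26.23 in iSLC. Actg2, smooth muscle gamma actin, was at 0.12 to 11.73 TPM in the 24 and at 246.82, 275.65 and 261.02 in iSLC. Within these contractile genes the order of levels in iSLC ran from Acta2 (1652 TPM) and Tagln (1048) through Myl9 (524), Actg2 (261) and Smtn (164) to Des (62.1), Lmod1 (25.5), Cnn1 (20.8), Myh11 (12.6) and Myocd (0.537).

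The first step, from ESC to EpiSC, brought a rise of 4 of the 10 genes, with none lower, against 8.07% of all genes called in either direction with 3.75% higher and 4.32% lower. A gene was called when its adjusted p (edgeR, Benjamini-Hochberg) was at most 0.01, its fold change at least 2 and its mean normalized count at least 100. Acta2 read 4.72, 3.5 and 3.47 TPM in ESC and 64.17, 73.22 and 65.88 in EpiSC, a log2 fold change of 4.19 (SE 0.11, adjusted p = 6.95e-21 by edgeR), or 18.3-fold. Cnn1 rose 9.1-fold, Tagln 7.67-fold and Myl9 6.05-fold, and the libraries of the 2 groups stood apart for each. Actg2 also differed, by 9.72-fold, but neither group reached the count minimum, with 3 to 7 reads per ESC library. Myh11 passed the p threshold at 1.97-fold higher, Smtn at 1.55-fold higher and Des at 1.48-fold lower, all under the fold minimum. By the count minimum, Myh11 could be called only in iSLC against IM3, and Myocd in no comparison.

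From EpiSC to M part of that early rise was lost. Of the 10 genes, 5 fell and none rose, against 14.5% of all genes called, 6.79% higher and 7.72% lower. Myl9 read 73.95, 80.21 and 70.89 TPM in EpiSC and 10, 9.94 and 9.78 in M, and was 7.99-fold lower (log2 fold change -3.00, SE 0.098, adjusted p = 1.16e-19 by edgeR). Cnn1 was 4.55-fold lower, Acta2 2.32-fold, Lmod1 2.24-fold and Des 2.1-fold. Tagln, from 186.64 to 203.87 TPM in EpiSC and from 100.52 to 110.76 in M, missed the fold minimum at 1.99-fold lower, and was called without EpiSC replicate 1, without M replicate 1, without M replicate 2 and with an offset for GC content. The call of Lmod1 was lost without EpiSC replicate 2 (log2 fold change -0.97) and with only the compared groups in the fit (-1.12), and that of Des with an offset for effective length (-0.74). Actg2 was 12-fold lower (adjusted p = 2.21e-11 by edgeR) and Myocd 4.7-fold higher (adjusted p = 1.42e-06 by edgeR), the only one of the 10 to pass the p threshold upwards, and both were under the count minimum. EpiSC cultures held activin A and M cultures did not, and the stage, the medium and the side of the red blood cell split changed with it.

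The step from M to IM brought the largest log2 fold changes of both smooth muscle actins among the comparisons made here. In IM1, 7 of the 10 genes rose and none fell against M, where 15.7% of all genes were called, 9.72% higher and 5.94% lower. Acta2 read 33.01, 29.04 and 30.42 TPM in M and 1969, 1812 and 1760 in IM1, or 56.2-fold higher (log2 fold change 5.81, SE 0.104, adjusted p = 7.6e-25 by edgeR). Actg2 was 55.5-fold higher, from 3 to 6 reads per M library, so that the size of this fold rests on few reads. Des rose 13.6-fold, Tagln 5.82-fold, Myl9 2.9-fold, Cnn1 2.41-fold and Lmod1 2.24-fold. Smtn (1.25-fold) passed the p threshold alone, Myocd (2.3-fold, adjusted p = 0.000153 by edgeR) was under the count minimum, and Myh11 missed the p threshold (adjusted p = 0.469 by edgeR).

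In IM3, which lies on the same side of the red blood cell split as M, 6 of the 10 genes rose and none fell against M, with 14.9% of all genes called, 9.26% higher and 5.66% lower. Actg2 read 0.24, 0.16 and 0.12 TPM in M and 11.73, 11.41 and 10.11 in IM3 (85.9-fold, log2 fold change 6.42, SE 0.202, again from 3 to 6 reads in M). Acta2 rose 24.7-fold, Des 13.9-fold, Myl9 5.5-fold, Tagln 4.61-fold and Lmod1 2.83-fold. Cnn1 was 1.5-fold higher and missed the fold minimum, Myocd was 3.12-fold higher (adjusted p = 2.98e-06 by edgeR) and missed only the count minimum, and Smtn and Myh11 did not pass the p threshold (adjusted p = 0.213 and 0.0956 by edgeR). The median log2 fold change of the 10 genes was 1.92, and that of all genes was 0. IM1 and IM3 share the M libraries in these comparisons.

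Of 24 genes outside the 10 that smooth muscle also uses, 11 were called higher in IM3 than in M, 13 were not called and none was called lower, with a median log2 fold change of 0.88. Synpo2 (synaptopodin 2, log2 fold change 4.26) and Filip1l (3.46) rose most, and the abundant Cald1 (caldesmon) rose by 1.68 while Tpm1 (tropomyosin 1), at 931 TPM in M and 2013 in IM3, missed the fold minimum at 0.93. Among those not called, Fhl1 (-0.51), Pdlim3 (-0.50) and Ppp1r12b (-0.48) had values below 0. Of 20 relatives that non-muscle cells use, 4 were called higher and 1 lower, with a median of 0.41. Vim (vimentin) rose by 1.37, and Myh9, non-muscle myosin, fell by 1.05. Actb and Actg1, the cytoplasmic actins, had log2 fold changes of 0.08 and 0.35 and were not called.

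Markers of heart muscle and of other mesenchyme rose in the same libraries, and their part in the levels above was not tested. Of 10 tested skeletal muscle genes, 0 were called by edgeR and 0 by DESeq2, 3 had an unadjusted p under 0.05 in edgeR, and the median log2 fold change was -0.26. Of 16 cardiac muscle genes, 10 were called higher in IM3 than in M, and their sum ran from 48.8 to 56.8 TPM in M, from 385 to 438.1 in IM1 and from 607 to 932.9 in IM3, with no gene of the list at 0 in these groups. Among them Actc1 (cardiac actin) averaged 123 TPM, Myl7 (atrial light chain) 141 and Tnni1 (slow troponin I) 236 in IM3. Of 10 fibroblast genes 7 were called higher, with sums of 63.5 to 71.1 TPM in M and 1544.6 to 1838.4 in IM3, led by Col1a1. Of 8 endothelial genes 6 were called higher and 1 lower, of 8 mesothelial genes 6 higher, and of 8 tested pericyte genes 3 higher (Cspg4, Rgs5 and Pdgfrb).

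Regulators of the contractile genes gave a mixed picture between M and IM3. Of 17 genes of the Srf axis (Srf, its cofactors and well known targets and modifiers), 4 were called higher and 4 lower. Prrx1 (log2 fold change 5.38), Gata6 (3.09), Klf4 (2.42) and the myocardin-related factor Mrtfb (1.08) rose, and Foxo4 (-1.94), Fos (-1.87), Klf5 (-1.68) and Egr1 (-1.08) fell. Srf itself was at 48.4 TPM in M and 29.4 in IM3 (log2 fold change -0.91, not called). Of 14 genes of the TGF-β axis 7 were called higher and none lower, among them the target Tgfbi (6.73) and the ligands Tgfb3 (4.19) and Tgfb2 (3.40).

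**Figure D2:**
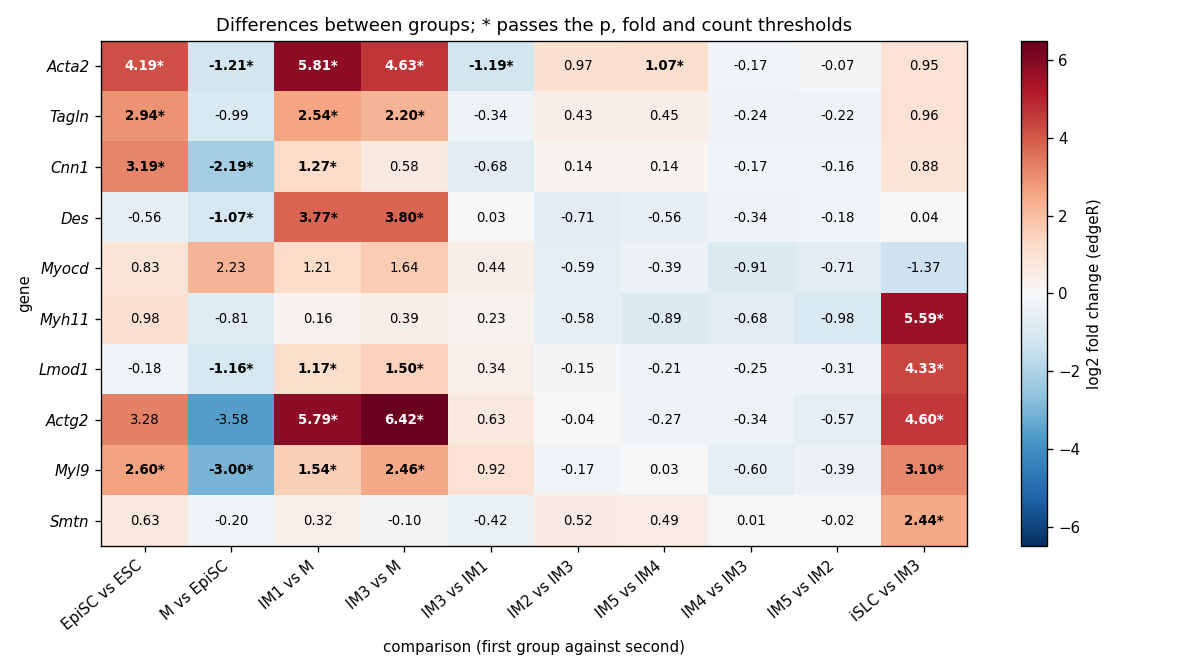
Log2 fold change (edgeR) of each of the 10 genes in each of 10 comparisons, the first group named against the second; bold values with an asterisk passed the thresholds on adjusted p, fold and count. The largest values stand in the 2 columns against M (Actg2 6.42 in IM3, Acta2 5.81 in IM1) and in iSLC against IM3 (Myh11 5.59), and the columns for added CHIR99021 hold no asterisk.

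With RA, only Acta2 of the 10 genes was called. Between IM3 and IM1, which differ in RA, 1 of the 10 genes was called, against 6.34% of all genes, 2.62% higher and 3.72% lower. Acta2 read 1969, 1812 and 1760 TPM in IM1 and 983, 775 and 847 in IM3, and fell by 1.19 on the log2 scale (SE 0.085, adjusted p = 6.73e-12 by edgeR), or 2.28-fold. Myl9 went the other way, from 28.37 to 31.42 TPM in IM1 to 56.01 to 71.07 in IM3, a 1.89-fold difference under the fold minimum that was called without IM3 replicate 3 and with an offset for GC content (log2 fold change 1.09). Cnn1 (1.6-fold lower), Smtn (1.34-fold lower), Tagln (1.26-fold lower) and Actg2 (1.55-fold higher) passed the p threshold alone. Des did not (log2 fold change 0.03, SE 0.094, adjusted p = 0.831 by edgeR). The 2 groups lie on opposite sides of the red blood cell split; with the GC offset the value for Acta2 was -1.21.

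Beside the fall of Acta2 with RA, 8 of the 17 genes of the Srf axis were called lower in IM3 than in IM1 and 1 higher. Klf5 (-2.83), Egr1 (-1.92), Ccn2 (-1.57) and Fhl2 (-1.54) fell, and Gata6 rose by 1.15. Of the other 24 smooth muscle genes only Mylk, the kinase that phosphorylates the regulatory light chain, was called, and it fell by 1.61 from 1.68 to 0.59 TPM. Of 16 cardiac muscle genes 7 were called higher and none lower, of 10 fibroblast genes 5 higher, of 8 mesothelial genes 5 higher, of 8 endothelial genes 6 lower and of 8 tested pericyte genes 4 lower. Their part in the value of Acta2 was not tested. The cardiac actin Actc1 rose by 1.47 while Acta2 fell.

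With activin A on top of RA, Acta2 was again the gene with the largest difference. IM2 against IM3 called 0 of the 10 genes, against 3.8% of all genes (2.46% higher and 1.34% lower), and DESeq2 also called 0, although 6 had an unadjusted p under 0.05 in edgeR. Acta2 read 1638, 1643 and 1696 TPM in IM2 and 983, 775 and 847 in IM3, with no overlap, and at 1.96-fold (log2 fold change 0.97, SE 0.085, adjusted p = 6.33e-10 by edgeR) it missed the fold minimum. Without IM3 replicate 1, the highest of its group, the value was 1.06 and Acta2 was called. With CHIR99021 in both arms, IM5 against IM4 called 1 of the 10 genes, against 4.09% of all genes, 2.63% higher and 1.46% lower. Acta2 read 1595, 1602 and 1338 TPM in IM5 and 839, 679 and 733 in IM4, or 2.1-fold higher (log2 fold change 1.07, SE 0.085, adjusted p = 9.12e-11 by edgeR). This call was lost without IM5 replicate 1, at a log2 fold change of 0.99.

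The other genes differed by less than 2-fold with activin A in both settings. Tagln was 1.35-fold and 1.37-fold higher in IM2 than IM3 and in IM5 than IM4, Smtn 1.44-fold and 1.41-fold higher, and Des 1.64-fold and 1.47-fold lower. Myh11 was 1.49-fold lower in IM2 than IM3 (adjusted p = 0.0247 by edgeR) and 1.85-fold lower in IM5 than IM4 (adjusted p = 0.00347 by edgeR), at levels of 0.34 TPM or less. Myl9 (log2 fold change -0.17 and 0.03), Cnn1 (0.14 in both) and Lmod1 (-0.15 and -0.21) did not pass the p threshold in either. The interaction of activin A with CHIR99021 was not called for any of the 10 genes, against 0.0336% of all genes, with none at an unadjusted p under 0.05 and none called by DESeq2. For Acta2 the interaction was 0.10 on the log2 scale (SE 0.118, adjusted p = 0.803 by edgeR). Both arms compare a group on the low side of the red blood cell split with one on the high side.

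Of the Srf axis, Klf5, Fhl2, Ccn2 and Csrp2 were called higher with activin A in both settings, and these comparisons share no library. Pdlim3, Npnt and Ppp1r14a, an inhibitor of myosin phosphatase, were called higher and Ldb3 lower in both settings among the other 24 smooth muscle genes. Of the 16 cardiac muscle genes, 7 were called lower in IM2 against IM3 and 6 in IM5 against IM4, and none was called higher, although Nkx2-5 had a log2 fold change of 1.69 in the latter under the count minimum. Of 8 mesothelial genes 5 were called lower, and of 6 pluripotency genes 4 were called higher, in each of the 2 settings. The part of these markers in the value of Acta2 was not tested.

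CHIR99021 was not followed by a call in any of the 10 genes. Myh11 and Myocd were under the count minimum here, so neither could have been called. IM4 against IM3 called 0 of 10, against 0.101% of all genes, all of them lower, and IM5 against IM2 called 0 of 10, against 0.235% (0.0432% higher and 0.192% lower). DESeq2 also called 0 in each, and 7 and 6 of the genes had an unadjusted p under 0.05 in edgeR. In both settings the medians were below 0 (-0.29 and -0.27). Myl9 was 1.52-fold lower in IM4 than IM3 (from 56.01 to 71.07 TPM down to 35.96 to 47.45, adjusted p = 0.000147 by edgeR) and 1.31-fold lower in IM5 than IM2. Actg2 was 1.48-fold lower in IM5 than IM2 (adjusted p = 0.000212 by edgeR) and 1.26-fold lower in IM4 than IM3 (adjusted p = 0.0719 by edgeR). Myh11, at 0.34 TPM or less in these groups, was 1.98-fold lower in IM5 than IM2 (adjusted p = 0.00743 by edgeR) and 1.6-fold lower in IM4 than IM3 (adjusted p = 0.106 by edgeR). Myocd was 1.63-fold lower (adjusted p = 0.0779 by edgeR) and 1.87-fold lower (adjusted p = 0.0487 by edgeR) in the same comparisons. The cardiac list differed in the same 2 comparisons, with 7 and 6 of its 16 genes called lower.

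The last step, from IM3 to iSLC, raised Myh11, Myl9, Actg2, Lmod1 and Smtn. Of the 10 genes, 5 rose and none fell, against 19.2% of all genes called, 10.3% higher and 8.92% lower. Myh11 read 0.34, 0.23 and 0.19 TPM in IM3 and 12.31, 12.39 and 12.96 in iSLC, or 48.2-fold higher (log2 fold change 5.59, SE 0.153, adjusted p = 1.76e-21 by edgeR). Actg2 read 11.73, 11.41 and 10.11 TPM in IM3 and 246.82, 275.65 and 261.02 in iSLC, or 24.2-fold higher. Lmod1 rose 20.1-fold, from 1.2 to 1.38 TPM in IM3 to 25 to 26.23 in iSLC. Myl9 rose 8.57-fold, to 523.74 to 524.75 TPM, and Smtn 5.44-fold, to 159.12 to 172.36 TPM. For these 5 genes the iSLC libraries were also all higher than those of IM1, IM2 and IM5, which are the IM groups on its own side of the red blood cell split.

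The other 5 genes were not called. Acta2 (1.94-fold higher), Tagln (1.95-fold) and Cnn1 (1.83-fold) passed the p threshold and missed the fold minimum, and without IM3 replicate 1 both Acta2 (log2 fold change 1.05) and Tagln (1.03) were called. Tagln was also called with an offset for GC content (1.01). Against IM1, IM2 and IM5 the order differed by gene: Acta2 in iSLC (1637.56 to 1660.6 TPM) lay below IM1 and overlapped IM2, whereas Tagln (1013.41 to 1082.12 TPM) lay above every other group. Des did not pass the p threshold (log2 fold change 0.04, SE 0.094, adjusted p = 0.712 by edgeR). Myocd was lower, at 0.55, 0.68 and 0.38 TPM in iSLC against 1.32, 0.89 and 1.16 in IM3 (log2 fold change -1.37, SE 0.247, adjusted p = 1.91e-05 by edgeR). It was not called because its mean count over all libraries was under the minimum. With only the compared groups in the fit, Myocd was called lower (log2 fold change -1.395, adjusted p = 0.000244 by edgeR).

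Shares within gene families, computed inside each library, showed the isoform balance without reference to other genes. Acta2 made up 0.0940 ± 0.0132% of the summed TPM of 6 actins in ESC, 0.634 ± 0.0409% in M, 18.9 ± 1.3% in IM1, 11.6 ± 1.09% in IM3 and 21.8 ± 0.223% in iSLC. Actg2 made up 0.148 ± 0.00606% in IM3 and 3.44 ± 0.227% in iSLC. Myl9 took 6.66 ± 0.465% of the regulatory light chains (with Myl12a and Myl12b) in IM3 and 40.1 ± 0.525% in iSLC. Tagln took 60.1 ± 1.46% of the transgelins in IM3 and 84.3 ± 0.582% in iSLC, where Tagln2 was at 195 TPM against 364 in IM3. Myh11 remained a minor heavy chain even in iSLC, at 1.75 ± 0.0535% of Myh9, Myh10 and Myh11 together, against 0.0440 ± 0.0125% in IM3. Cnn1 peaked in EpiSC at 8.16 ± 0.399% of the calponins and stood at 2.64 ± 0.177% in iSLC. Des made up 23.8 ± 0.445% of Des and Vim together in ESC, 1.18 ± 0.147% in M, 3.73 ± 0.194% in IM3 and 2.51 ± 0.122% in iSLC.

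**Figure D3:**
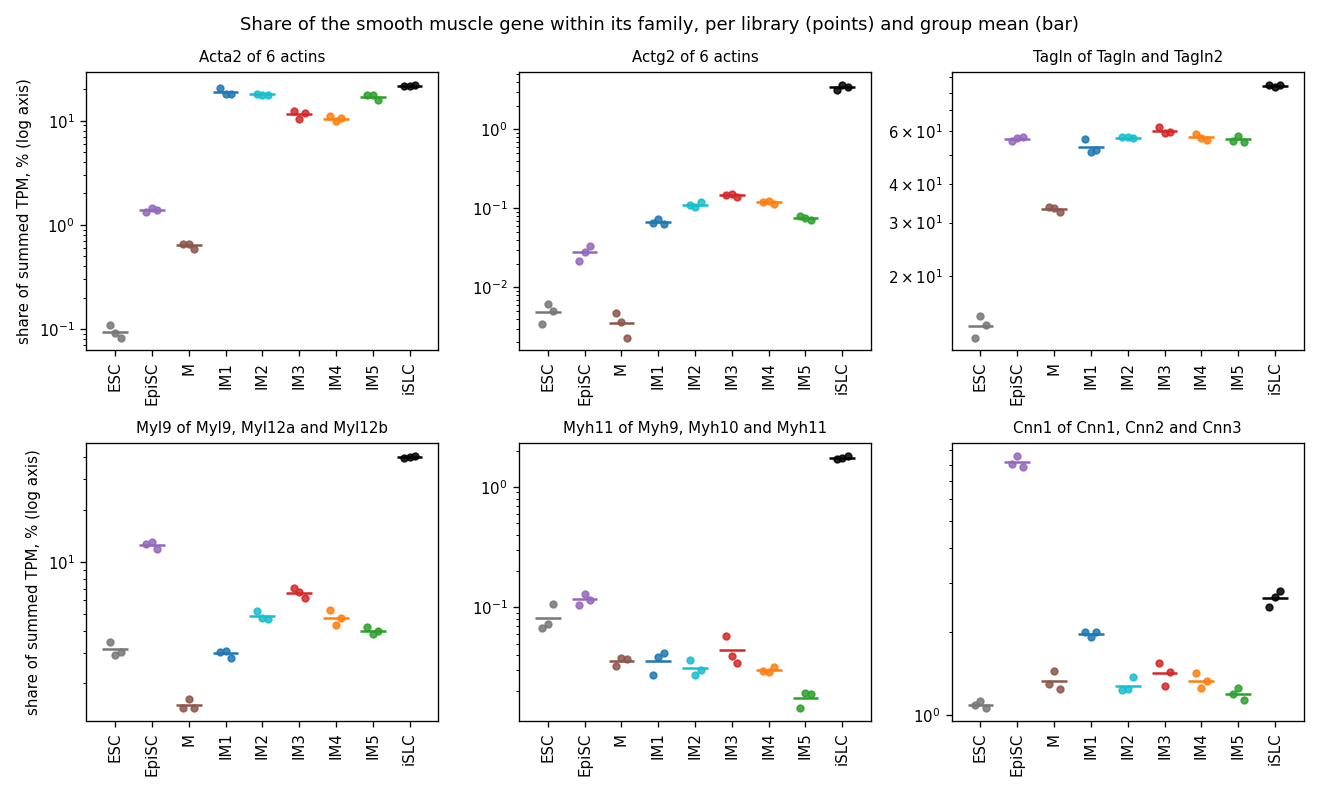
Share in % (log axis) of 6 of the genes in the summed TPM of their own gene family, in each library (points) with the group mean (bar). The shares of Myl9, Myh11 and Actg2 were highest in iSLC (40.1%, 1.75% and 3.44%), and that of Cnn1 in EpiSC (8.16%).

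Of the 24 other smooth muscle genes, 13 were called higher in iSLC than in IM3, 1 lower and 10 not, with a median log2 fold change of 1.26 against 0 for all genes. Mylk rose by 6.09 (0.59 to 39 TPM), Itga8 (integrin alpha 8) by 4.64 (5.63 to 136 TPM), Pdlim3 by 2.22 and Tpm2 (tropomyosin 2) by 1.71, and Npnt fell by 1.13. Tpm1 (-0.27), Fhl1 (-0.58) and Csrp1 (0.30) were not called. Of the 20 non-muscle relatives 1 was called higher (Vcl, vinculin, from 112 to 274 TPM) and 1 lower (Smtnl2, -1.06), with a median of -0.01. Actb (-0.20), Actg1 (-0.15), Myh10 (0.14) and Vim (0.65) were not called.

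Of the Srf axis, 5 genes were called higher and 1 lower in iSLC: Egr1 (4.53), Fhl2 (3.91), Prrx1 (2.16), Fos (1.92) and Ccn2 (1.68) rose, and Klf5 fell by 1.28. Srf (0.51), Mrtfa (0.70) and Mrtfb (0.73) were not called. Egr1 and Fos are immediate early genes that cell handling is known to induce, iSLC was the only sorted group, and the part of the sort was not tested. Of the TGF-β axis, 2 of 14 genes were called higher, the ligand Tgfb3 (2.17, at 96.7 TPM) and the receptor Tgfbr2 (1.68), and none lower.

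Markers of other cell types moved in both directions at this step, and their part in the contractile genes was not tested. Of 16 cardiac muscle genes 10 were called lower and none higher, with sums of 607 to 932.9 TPM in IM3 and 245.7 to 252.3 in iSLC, although Tnnt2 (troponin T) was higher, at 67.8 TPM in IM3 and 130 in iSLC (log2 fold change 0.93, under the fold minimum). Of 10 tested skeletal muscle genes, 2 were lower and none higher. Fibroblast genes rose, 7 of 10 called higher and none lower, with sums of 1544.6 to 1838.4 TPM in IM3 and 6305.8 to 6376 in iSLC. Col3a1 rose by 3.40 to 2230.2 TPM, Lum by 3.92 and Fap by 9.49. The size of the Fap value rests on few reads, with normalized counts of 1.05, 0 and 2.905 in the IM3 libraries. Of 8 tested pericyte genes 3 rose (Abcc9, which rose by 5.75, with Cspg4 and Notch3) and Rgs5 fell by 1.87. Of 8 endothelial genes 7 were lower and only Emcn higher, and of 8 mesothelial genes 4 were lower and only Gpm6a higher.

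**Figure D4:**
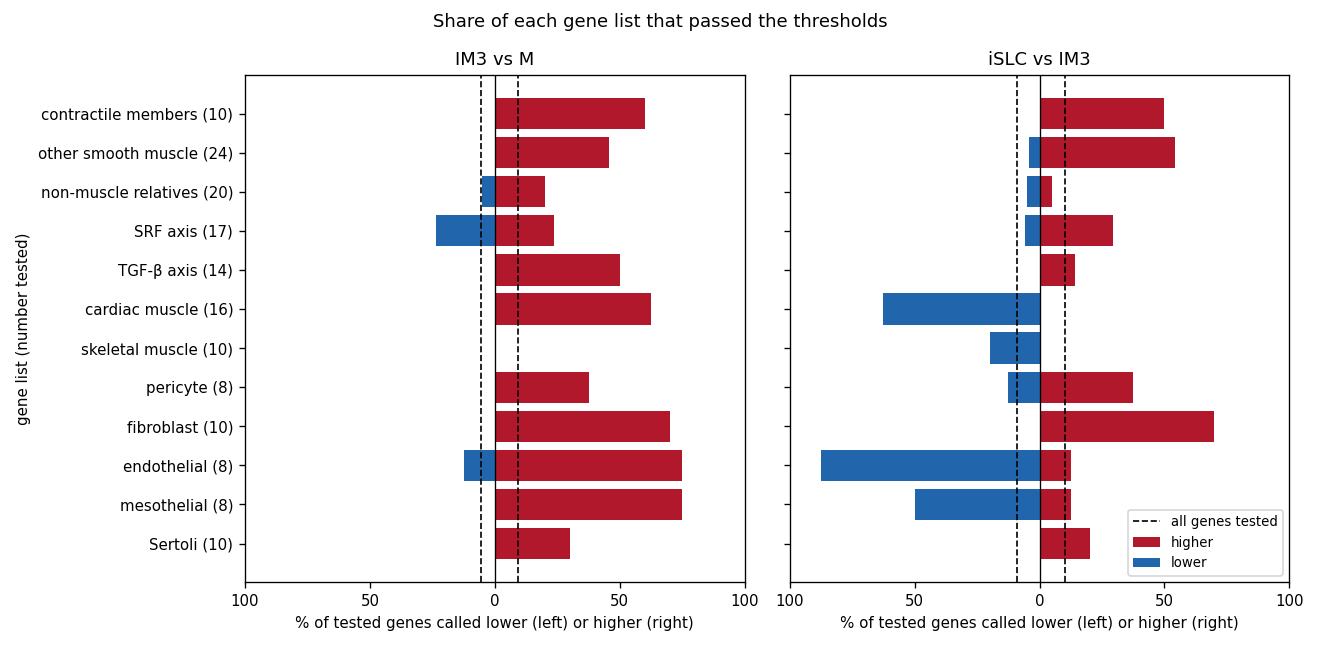
Share in % of the tested genes of each list called higher (right) or lower (left) in IM3 against M and in iSLC against IM3, with the share over all genes tested as dashed lines (9.26% and 10.3% higher). The contractile genes and the other smooth muscle genes lean higher in both panels, as do the fibroblast and pericyte lists. The TGF-β and Sertoli lists lean higher in the left panel. In the right panel the only Sertoli genes called are Nr5a1 and Dmrt1, which the viruses carried. The TGF-β list there has 2 of 14 genes called higher and a median log2 fold change of -0.22. The cardiac, endothelial and mesothelial lists lean higher in the left panel and lower in the right.

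By the pattern over the 9 group means, the gene most like Acta2 was Nexn (Pearson r = 0.9922), which encodes an actin-binding protein and is among the 24 other smooth muscle genes. Tagln was nearest to Hivep2 (0.9929), Actg2 to Scx (0.9926), the tendon factor scleraxis, Lmod1 to Clca3a1 (0.9932), Myl9 to Fzd8 (0.9867), Smtn to Tmem234 (0.9844), Myh11 to Dbp (0.9838) and Cnn1 to Rtl8b (0.9454). Des was nearest to Jazf1 (0.9784) and Myocd to Bace2 (0.9816). Over only 9 points such values are a description.

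Some of these genes share sequence or position with others. The 6 actins are closely related in sequence, and estimated counts can divide reads that several of them share. The counts of Actg2 were whole numbers, to 1 decimal, in all 27 libraries, whereas those of Acta2 were not in 11 of 27, so that a part of the Acta2 reads was assigned by estimate there. On the opposite strand, Tagln overlaps Pcsk7 over 5.43% of its exon bases, Smtn overlaps Gm11946 over 16.3% and Gm11947 over 0.89%, and Des overlaps Gm15179 over 5.86%. The strand setting of the counting is not given in the sources used here, so reads of these partners cannot be told apart in those stretches. In GRCm38 the genes lie on chromosomes 19 (Acta2, 34241090 to 34255590), 9 (Tagln, 45929619 to 45936058, and Cnn1, 22099216 to 22109630), 16 (Myh11, 14194535 to 14291372), 2 (Myl9, 156775420 to 156781658), 1 (Lmod1, 135324807 to 135368065, and Des, 75360329 to 75368579), 6 (Actg2, 83512905 to 83536265) and 11 (Smtn, 3517523 to 3540612, and Myocd, 65176561 to 65269989).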

How the data were processed

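Libraries were made from total RNA with the TruSeq V2 kit and sequenced in pairs on an Illumina HiSeq system. Per the labels and the submitters' processing notes, the authors trimmed reads with cutadapt 1.9.1, aligned them to GRCm38 with STAR 2.5.2a and deposited RSEM 1.3.0 expected counts, TPM (scaled for transcript length and library depth) and FPKM per gene. The 3 replicates of a group are described as biological, but nothing says that they came from separate cultures, so p-values measure the spread between these samples. Symbols came from GENCODE M21 (99.09% of gene identifiers matched). Members and gene lists were chosen with earlier results of these data known.

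Here, expected counts were rounded and fitted for all 27 libraries together with edgeR 4.0.16 (R 4.3.3; TMM, quasi-likelihood, 1 coefficient per group); p-values were adjusted by Benjamini-Hochberg over 20839 genes. Levels are TPM. Called genes had an adjusted p no higher than 0.01, changed 2-fold or more, and averaged 100 normalized counts or more both across libraries and in 1 or both groups compared. Folds and SEs are those of the fit. The replicate numbers did not pair the samples. The rule for named genes was all 10 members, the 3 most abundant genes of each further list and its largest called changes per comparison, the nearest 3 genes by correlation (normalized CPM, prior count 2), and red blood cell genes as a sum. Other genes, such as regulators named beside their list's count, were chosen after their values were seen. The lists were other smooth muscle genes, non-muscle relatives, the Srf and TGF-β axes, and cardiac, skeletal, pericyte, fibroblast, endothelial, mesothelial, Sertoli, red blood cell and pluripotency markers. Of 6 pluripotency genes, 5 were called lower in IM3 than in M. Alternatives were DESeq2 1.42.0 and its size factors, other thresholds and filters, the compared groups alone, offsets for effective length and GC content, a replicate block, the deposited FPKM for levels, and leaving out each library. Scripts were tested on simulated data.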

Additional observations from a re-analysis of the deposited data

How the results depend on the processing

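Of 731 values set against an alternative, 715 kept their direction and their side of the threshold (for counts, stayed within 1.5 times), 5 lost a call, 11 moved and none turned its direction. Fold changes of single genes were included only for genes called in the main run, so a gained call shows only in the counts. All 10 genes differed among the groups in each alternative run. With no fold minimum, the number of the 10 genes called was 6 in IM3 against IM1, 4 in IM2 against IM3, 4 in IM5 against IM4, 1 in IM4 against IM3, 2 in IM5 against IM2 and 8 in iSLC against IM3. An offset for GC content, alone and with the replicate block, which was chosen after seeing the data, gave 2 in IM3 against IM1, by adding Myl9. The same offset added Tagln in M against EpiSC and in iSLC against IM3. Leaving out each library in turn gave 0 to 1 in IM2 against IM3, 1 to 2 in IM3 against IM1 and 0 to 1 in IM5 against IM4, in each case by 1 gene near a fold of 2. It gave 4 to 6 in M against EpiSC, by losing Lmod1 or adding Tagln. In iSLC against IM3 it gave 5 to 7, by adding Acta2 and Tagln together. The log2 fold change of Des in M against EpiSC was -0.74 with an offset for effective length, and that of Lmod1 was -1.12 in M against EpiSC and 1.52 in IM3 against M with only the compared groups, each no longer called; the fewer libraries entering the count minimum bear on Lmod1, and the cause for Des was not tested. Same-numbered libraries deviated together no more than others did (mean correlation 0.002 against -0.001), so the numbers did not pair the samples. With the number as a replicate block, 5 of the 10 genes were called in iSLC against IM3, 6 in IM3 against M and 1 in IM3 against IM1, as without it, and no count changed. Depth limits Myocd in all groups, Myh11 in all groups other than iSLC, and Actg2 in ESC, EpiSC and M. In ESC and M a library held as few as 3 reads of Actg2.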
